A study of Mus musculus with 29 samples.

Results

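Sus-T and Res-T mice that had been through trauma were compared by RNA sequencing of pyramidal neurons sorted from the amygdala, over 9872 genes. The comparison took all libraries labelled as amygdala with trauma, 4 of Sus-T and 4 of Res-T, which were 8 of the 29 samples of the series. All mice carried the Thy1-YFP transgene (B6.Cg-Tg(Thy1-YFP)HJrs/J), in which Thy1 regulatory sequences drive a yellow fluorescent protein in a subset of projection neurons. Tissue punches were dissociated with enzymes, neurons were sorted into lysis buffer, and libraries were made with a kit for ultra-low input that removes ribosomal RNA. The series concerns fear circuit pyramidal neurons and poor extinction of fear. The labels did not expand Res-T and Sus-T, did not describe the trauma, and gave no age or sex. Amygdala libraries without trauma, 3 of Res-T and 2 of Sus-T, shared the model fit and served for the test of whether the difference depended on trauma. A further Sus-T amygdala sample without trauma and 1 prefrontal Res-T sample with trauma, which the labels mark as left out of the differential expression, were not analysed here. The design text names 9 mice for the amygdala, fewer than the 13 amygdala libraries fitted, and no label ties libraries to animals. Some libraries may therefore share an animal, in which case n counts libraries rather than mice, the SDs and SEs do not measure the spread between mice, and the p-values may be too small.

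The amygdala assigns threat value to cues and contexts, and its glutamatergic projection neurons store and extinguish fear memories by changing the strength of their synapses. A glutamate synapse holds an active zone that releases vesicles, glutamate receptors that admit current, a postsynaptic density of scaffolds such as Dlg4, Shank and Homer proteins, and small GTPases of the Rap and Arf families that shape spines. Calcium entry acts through calmodulin and Camk2a, and G protein pathways read neuromodulators.

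The deposited values were normalized, in arbitrary units, and summed to between 3356421 and 4021272 per library. No value was 0. In a principal component analysis of the 8 libraries, replicate 2 of each group stood apart on the first component, at 51.1 and 41.5. The other libraries lay between -30.2 and -3.06 there. On the second component, with 28.5% of the variance against 29% for the first, both replicates numbered 2 lay at opposite ends. Res-T replicate 2 was at 51.6 and Sus-T replicate 2 at -51.2. These libraries also deviated most from their group means, by 0.652 and 0.579 log2 units (root mean square), against 0.328 to 0.489 for the rest. Of the 21 written markers of pyramidal neurons 5 were in the table, and Slc17a7 and Thy1 were not analysed here. Their sum made up 0.0574% to 0.244% of a library, while 23 oligodendrocyte markers made up 4.43% to 6.97%. The label of pyramidal neurons therefore stood beside a large content of myelin transcripts.

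The 250 bases before the transcription start are given here for the 4 genes with the smallest p among those higher in Sus-T, and for Tubb4a among those lower. They come from RefSeq on GRCm38.p6, 5′ to 3′ on the strand of the gene, for the first start listed. Adamtsl1 had no entry, and the start listed for Shroom3 lay far from the annotated start of the gene, so neither is shown. The listed starts lay within 1 base of the start in the GENCODE annotation for Rap1gap2 and Bsn, and 624, 290 and 182 bases from it for Fbxl16, Psd and Tubb4a. The stretch of Psd thus lies inside the annotated gene and that of Tubb4a partly so. The stretches are chr17:25808211-25808460 on the plus strand for Fbxl16, chr11:74610916-74611165 on the minus strand for Rap1gap2, chr19:46326867-46327116 on the minus strand for Psd, chr9:108190384-108190633 on the minus strand for Bsn and chr17:57087601-57087850 on the minus strand for Tubb4a. Capitals mark TGACG, the half-site of the cAMP response element, and GGGCGG, the GC box, on both strands.
Fbxl16: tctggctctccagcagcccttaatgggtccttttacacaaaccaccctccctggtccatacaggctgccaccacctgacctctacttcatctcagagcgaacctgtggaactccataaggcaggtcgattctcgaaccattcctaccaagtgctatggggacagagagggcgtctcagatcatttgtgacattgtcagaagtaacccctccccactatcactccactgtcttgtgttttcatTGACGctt
Rap1gap2: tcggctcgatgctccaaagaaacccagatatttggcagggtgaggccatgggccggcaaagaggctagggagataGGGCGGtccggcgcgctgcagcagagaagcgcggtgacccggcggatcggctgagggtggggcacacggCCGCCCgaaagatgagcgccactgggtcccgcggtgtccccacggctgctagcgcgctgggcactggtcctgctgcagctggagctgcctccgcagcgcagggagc
Psd: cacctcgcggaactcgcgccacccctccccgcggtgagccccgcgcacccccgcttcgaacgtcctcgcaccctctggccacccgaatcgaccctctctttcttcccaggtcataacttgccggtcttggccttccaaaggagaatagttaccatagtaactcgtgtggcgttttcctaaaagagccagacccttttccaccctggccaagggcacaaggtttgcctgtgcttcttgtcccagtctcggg
Bsn: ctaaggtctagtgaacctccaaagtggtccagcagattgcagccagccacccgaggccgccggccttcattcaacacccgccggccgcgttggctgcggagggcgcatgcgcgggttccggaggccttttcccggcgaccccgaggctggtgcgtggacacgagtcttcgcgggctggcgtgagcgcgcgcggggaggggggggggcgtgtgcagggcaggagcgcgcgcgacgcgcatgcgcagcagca
Tubb4a: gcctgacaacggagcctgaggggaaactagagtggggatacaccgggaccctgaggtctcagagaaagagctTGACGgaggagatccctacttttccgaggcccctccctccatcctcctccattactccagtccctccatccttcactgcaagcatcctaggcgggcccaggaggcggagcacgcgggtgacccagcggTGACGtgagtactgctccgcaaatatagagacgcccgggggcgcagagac
The half-site occurred in 17.9% and the GC box in 32.9% of the 27025 RefSeq genes with such a stretch, and in 28.1% and 60.9% of the 7716 genes tested here that had one. The half-site was found 1 time before Fbxl16 and 2 times before Tubb4a, and the GC box 2 times before Rap1gap2. Psd and Bsn had neither, which says only that these letters were not in these bases.

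No gene passed an adjusted p of 0.05 (0%) in the limma model of Sus-T minus Res-T with trauma, and the smallest adjusted p was 0.0534. At an unadjusted p under 0.05 there were 693 genes higher in Sus-T (7.02%) and 449 lower (4.55%). Fitting the 8 libraries with trauma alone also gave 0 genes, with a smallest adjusted p of 0.170, and 588 higher (5.96%) and 332 lower (3.36%) at an unadjusted p under 0.05. Below an adjusted p of 0.1, 35 genes were higher (0.355%) and 3 were lower (0.0304%). The 2 groups were fully separated in 568 genes (5.75%), with Sus-T on the higher side in 342 (3.46%) and on the lower side in 226 (2.29%). Separated, or apart, means that no library of one group reached into the range of the other. With quantile normalization 317 genes were separated on the higher side and 291 on the lower. With scaling to equal library totals these were 302 and 267. The count past 0.05 turned on single libraries. It was 12 without Res-T replicate 2, 11 without Sus-T replicate 4, 5 without Sus-T replicate 2, 1 without Sus-T replicate 1 and 0 without any of the other 4 libraries with trauma. Without both replicates numbered 2, an alternative chosen after seeing the data, 35 genes passed, all higher in Sus-T, and 9 of them were among the 23 leading genes described next, which had the smallest p on either side.

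**Figure D1:**
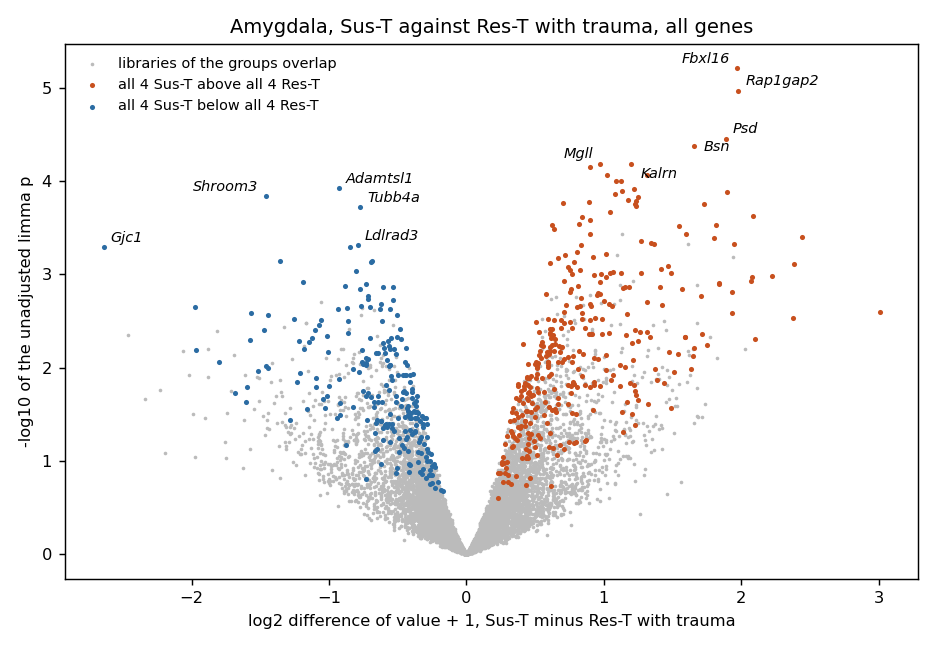
Each point is 1 of 9872 genes, with the log2 difference of value + 1 (Sus-T minus Res-T with trauma) on the horizontal axis and the negative log10 of the unadjusted limma p on the vertical axis. Orange marks the 342 genes whose 4 Sus-T libraries all lay above Res-T, blue the 226 below, and Fbxl16 and Rap1gap2 stand highest.

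Fbxl16, which encodes an F-box protein with leucine-rich repeats, had the smallest p of all genes. Its values were 229, 210, 253 and 236 in Res-T and 2152, 572, 916 and 611 in Sus-T, with means of 232 ± 17.9 and 1063 ± 743 (SD, n = 4 each). The Res-T libraries were close together, and Sus-T replicate 1 was the highest. The log2 difference was 1.97 ± 0.31 (SE) with an adjusted p of 0.0534, and the gene lies on chromosome 17 from 25809085 to 25821255. Rap1gap2, a GTPase-activating protein that switches off Rap signalling, read 82.3, 85.5, 54.3 and 30.4 in Res-T and 258, 193, 235 and 252 in Sus-T. Here the Sus-T libraries were the tighter group relative to their mean, with means of 63.1 ± 25.9 in Res-T and 235 ± 29.3 in Sus-T (SD). No library of one group reached the other. The difference was 1.98 ± 0.32 with the same adjusted p of 0.0534, and the gene lies on chromosome 11 from 74383356 to 74610915.

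Presynaptic and postsynaptic scaffold genes came next. Bsn encodes Bassoon, a giant scaffold of the active zone, on chromosome 9 from 108096022 to 108190384. It was measured at 314, 385, 233 and 170 in Res-T and at 1329, 580, 1181 and 530 in Sus-T, a log2 difference of 1.66 ± 0.30 (adjusted p 0.0724). Sus-T replicates 1 and 3 were far above the other libraries, and replicates 2 and 4 were nearer to Res-T. Psd, an exchange factor for Arf6 in dendritic spines, lies on chromosome 19 from 46312087 to 46327156. Its values of 76.8, 94.9, 105 and 61.6 in Res-T compared with 645, 241, 373 and 158 in Sus-T, a difference of 1.89 ± 0.34 (adjusted p 0.0724). The same Sus-T replicates, 1 and 3, were the highest. Lzts3, a postsynaptic protein that binds Shank and Rap regulators, ran from 99.7 to 155 in Res-T and from 211 to 402 in Sus-T, a difference of 1.09.

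Signalling genes made up most of the other leading genes. Kalrn encodes kalirin, an exchange factor for small GTPases that enlarges spines. It stood at 273, 353, 262 and 240 in Res-T and 902, 544, 824 and 421 in Sus-T, a difference of 1.2 ± 0.23. Mgll, the lipase that breaks down an endocannabinoid, was at 239, 164, 169 and 188 against 434, 338, 332 and 383. Its difference of 0.97 ± 0.19 came with narrow ranges in both groups. Mapk8ip2, a scaffold of the JNK pathway, had a Res-T mean of 116 ± 23.8 and a Sus-T mean of 300 ± 109. Brsk1, a kinase of neuronal polarity, averaged 329 ± 75.3 and 673 ± 161.

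Membrane and secreted proteins of the synapse completed these 11 genes. Grm5, a metabotropic glutamate receptor, was at 162, 187, 144 and 119 in Res-T and at 431, 264, 430 and 249 in Sus-T, a difference of 1.13 ± 0.23. Olfm1, a secreted olfactomedin found with AMPA receptors, was at 301, 393, 244 and 380 against 974, 495, 914 and 568, a difference of 1.13 ± 0.22. In both Grm5 and Olfm1 replicates 1 and 3 were the higher Sus-T libraries. All of the 11 genes but Fbxl16 and Rap1gap2 had an adjusted limma p of 0.0724.

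**Figure D2:**
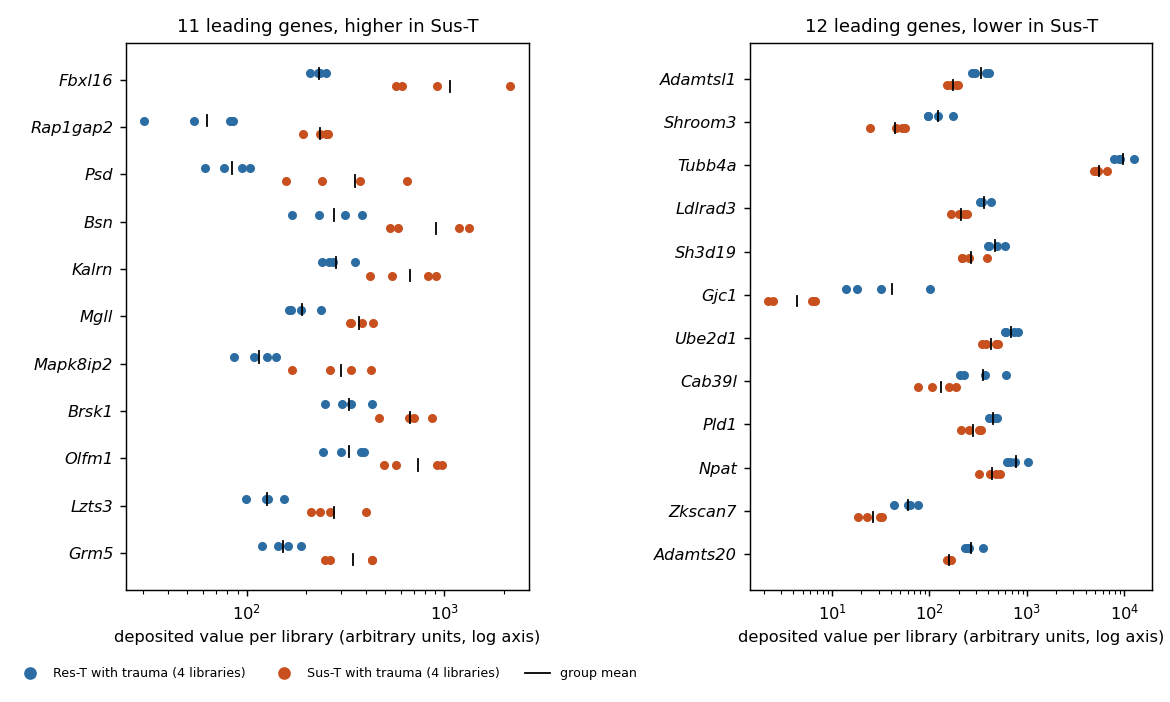
Deposited values per library (arbitrary units, log axis) of the 11 leading genes higher in Sus-T (left) and the 12 lower (right). Blue points are 4 Res-T and orange points 4 Sus-T libraries with trauma, black ticks are group means, and the 2 groups do not overlap in any of the 23 genes.

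Among genes lower in Sus-T, 3 had an adjusted p of 0.0724 and the others lay higher. Adamtsl1 encodes a secreted matrix protein related to ADAMTS proteases, on chromosome 4 from 85514172 to 86428385. It was at 404, 378, 291 and 275 in Res-T and at 187, 167, 151 and 195 in Sus-T, a log2 difference of -0.93 ± 0.19. All Sus-T libraries were within a narrow range below the lowest Res-T library. Shroom3, an organizer of actin and cell shape, was at 173, 123, 97.2 and 97.0 against 56.3, 24.6, 52.2 and 45.3, a difference of -1.46 ± 0.30. Tubb4a, a beta tubulin with high levels in myelinating oligodendrocytes, was at 8809, 12571, 9020 and 7812 against 4888, 6567, 5394 and 5232. It was the most abundant of these genes per library, and its difference was -0.78 ± 0.16.

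The other 9 had adjusted p-values from 0.103 to 0.141. Ldlrad3, a receptor with LDL receptor domains, was at 343, 428, 340 and 331 in Res-T and 203, 167, 241 and 224 in Sus-T. Gjc1, a connexin of gap junctions, had the lowest log2 difference of the 23 at -2.64 ± 0.62, from 17.8, 102, 32.0 and 13.8 to 6.29, 2.21, 6.63 and 2.51. Its values were low, and Res-T replicate 2 carried most of the Res-T mean. Adamts20, a matrix metalloprotease, was at 350, 232, 241 and 254 against 152, 159, 161 and 165, so the Sus-T libraries nearly coincided. Sh3d19, Ube2d1 (a ubiquitin-conjugating enzyme), Pld1 (phospholipase D) and Npat (a regulator of histone gene transcription) differed by between -0.85 and -0.69. Zkscan7, a zinc finger gene, differed by -1.19.

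The largest differences were taken among genes with a mean of at least 50 whose groups did not overlap, leaving out predicted genes, pseudogenes and shared symbols. The 6 largest on the higher side were those of Ddn, Gnal, Homer2, Rap1gap2, Fbxl16 and Fam163a. Ddn encodes dendrin, a postsynaptic protein, and was at 111, 165, 10.6 and 178 in Res-T and at 1647, 368, 1068 and 248 in Sus-T. Its difference was 3.01 ± 0.81 (adjusted p 0.175), and Res-T replicate 3 was far below the other 3. Gnal, the G protein subunit that couples dopamine receptors to adenylyl cyclase in the striatum, was at 85.2, 12.2, 99.4 and 64.2 against 622, 136, 401 and 190, a difference of 2.45 ± 0.55 (adjusted p 0.101). Homer2, a scaffold that ties metabotropic glutamate receptors to calcium stores, was at 146, 9.48, 98.8 and 130 against 410, 189, 233 and 372. In both Gnal and Homer2 the lowest library was Res-T replicate 2. Fam163a differed by 1.93.

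On the lower side 2 of the 6 largest differences were partners of the kinase LKB1. Strada, its pseudokinase partner, was at 181, 115, 45.4 and 47.3 in Res-T and at 45.1, 3.92, 44.4 and 42.0 in Sus-T, a difference of -1.68 ± 0.65 (adjusted p 0.320). The gap between the groups was only that from 45.4 to 45.1, and Sus-T replicate 2 was far below the others. Cab39l, the scaffold of the same complex, was at 371, 609, 206 and 224 against 186, 75.4, 107 and 159, a difference of -1.36 ± 0.33 (adjusted p 0.121). Syne3, a nuclear envelope nesprin, differed by -1.57 and Brca2, a DNA repair gene, by -1.22. Sus-T replicate 2 was the lowest library in both Syne3 and Brca2 as well.

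In presynaptic gene lists no member passed the adjusted threshold, and the count of members without overlap is read against 3.46% of all genes higher and 2.29% lower. Of 11 active zone scaffolds 3 lay wholly above Res-T and 0 below, with a median log2 difference of 0.39 against 0.01 over all genes. That median was 0.13 without Res-T replicate 2. Besides Bsn these were Ppfia2, a liprin, at 122, 77.9, 103 and 143 in Res-T and a tight 235, 224, 233 and 231 in Sus-T (1.08 ± 0.22, adjusted p 0.0724), and Ppfia4 (1.07). Pclo, which encodes the partner scaffold Piccolo, differed by only 0.19. Of 25 genes of vesicle fusion and recycling, 5 lay above and 1 below, with a median of 0.08 that was 0.17 without Res-T replicate 1 and 0.18 without Sus-T replicate 2. Syt6, a synaptotagmin, was at 8.06, 2.22, 18.0 and 9.96 against 97.5, 46.3, 29.6 and 30.6 (2.38 ± 0.59). Syn1, the synapsin that tethers vesicles, was at 251, 363, 276 and 259 against 482, 418, 565 and 447 (0.74 ± 0.18). Bin1, a membrane-bending protein, was the member below, at -0.33.

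Postsynaptic scaffolds had the largest share of members apart among the synaptic lists. Of 25, 9 lay wholly above Res-T and 0 below, and the median was 0.62. In the higher direction 14 had an unadjusted limma p under 0.05, against 7.02% of all genes. In the lower direction 1 had, against 4.55% of all genes. Dlg4, which encodes PSD-95, was at 356, 231, 388 and 421 in Res-T and 1177, 579, 596 and 554 in Sus-T, a difference of 1.02 ± 0.24 (adjusted p 0.115). Sus-T replicate 1 was far above the other 3, which lay close together. Ppp1r9b, the spine protein spinophilin, was at 872, 490, 574 and 1118 against 2697, 1420, 1315 and 1686 (1.24 ± 0.26, adjusted p 0.0724). Cnksr2, Iqsec2, Dlgap1, Dlgap4 and Shisa7 were also above without overlap, by 0.67 to 1.04. Gphn, the scaffold of inhibitory synapses, stood at 0.00, and Magi1 was lower at -0.44.

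Receptor genes were grouped in 3 lists. Of 18 AMPA and kainate receptor genes and their auxiliary proteins 5 lay above and 0 below, with a median of 0.43. Grip1, an adaptor of AMPA receptors, was at 18.8, 12.6, 6.51 and 12.7 in Res-T and at 45.8, 72.8, 46.2 and 54.3 in Sus-T (2.09 ± 0.45, adjusted p 0.0829). Gria3, an AMPA receptor subunit, was at 111, 195, 116 and 72.3 against 259, 238, 287 and 203 (1.07 ± 0.27), while the subunit Gria2 differed by 0.15 with overlap. Among 9 NMDA and metabotropic receptor genes only Grm5 lay apart, and the median was 0.20. None of 7 GABA receptor genes lay apart (median 0.57), from Gabrb2 at 1.01 to Gabrg3 at -0.23.

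Of 14 calcium channel genes 4 lay above and 0 below, with a median of 0.49. Cacna1a, the pore of presynaptic P/Q-type channels, was at 157, 165, 202 and 129 in Res-T and 315, 292, 311 and 249 in Sus-T (0.84 ± 0.18, adjusted p 0.0829). Cacna1b, the pore of N-type channels, was at 49.2, 102, 57.0 and 39.2 against 157, 131, 205 and 116 (1.34 ± 0.31), and Ryr3, a calcium release channel, differed by 1.43. Both presynaptic channel genes were thus above Res-T in every Sus-T library. Of 26 potassium channel genes 5 lay above and 1 below (median 0.46). Kcnmb4, an auxiliary subunit of large-conductance channels, differed by 1.84 and Kcnt2, a sodium-activated channel, by 1.49, while Kcna6 was below at -0.37. Of 10 sodium and HCN channel genes Scn8a alone lay apart (0.52, median 0.56).

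An unadjusted limma p under 0.05 was reached by 12 of 28 genes of calcium and CaMK signalling, all higher, where 7.02% of all genes were. Of the 28 genes 3 lay above and 0 below (median 0.49). Camk1d and Rcan1, a kinase and a regulator of calcineurin, were among those above, by 0.90 and 0.84. Calm2 and Calm3 encode calmodulin and differed by 0.16 and 0.47 with overlap.

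Of 33 genes of G protein, RGS and cAMP signalling 8 lay above and 0 below (median 0.33). Besides Gnal these held Rgs7bp, an anchor for RGS proteins, at 132, 51.3, 90.8 and 131 in Res-T and 722, 146, 500 and 244 in Sus-T (1.82 ± 0.40, adjusted p 0.0871). Pde10a, a phosphodiesterase of medium spiny neurons, was at 93.5, 75.8, 112 and 108 against 962, 192, 461 and 117 (1.71 ± 0.46), and its Sus-T replicate 4 was barely above Res-T. Rgs9 and Adcy5, which serve the same striatal dopamine pathway, differed by 1.05 and 0.77. Pde10a, Rgs9 and Adcy5 also belong to the list of striatal and central amygdala markers described further on.

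Spine and cytoskeleton lists contained members on both sides. Of 61 genes of GTPase regulation and spine actin 7 lay above and 2 below (median 0.20). Basp1, a growth-cone protein, was at 200, 192, 233 and 152 in Res-T and 352, 305, 357 and 349 in Sus-T (0.82 ± 0.18). Cttn, which encodes cortactin, was below at -0.77. Of 29 Ras and Rap regulators 2 lay above, Rap1gap2 and the spine protein gene Sipa1l1 (1.23 ± 0.26, adjusted p 0.0724), and 1 lay below, Rasal2 at -0.29. Their median of 0.30 was 0.12 without Res-T replicate 2. Of 37 microtubule genes 3 lay above, among them the dendritic Map2 (1.16) and the kinesin light chain Klc2 (0.91), and Tubb4a was the only one below.

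In the count of members without overlap, lists outside the synapse mostly lay near the share of all genes. For 60 chromatin regulators 1 lay above, Ehmt2, a histone methyltransferase (0.42), and 3 below (median -0.03). For 67 nuclear genes of oxidative phosphorylation 0 lay apart (median 0.11). For 65 cytosolic ribosomal protein genes 2 lay above, Rpl36a (0.57) and Rpl30 (0.46). Of the 65, however, 62 had a positive difference (median 0.33). An unadjusted limma p under 0.05 was reached by 16 of them, all higher, where 7.02% of all genes were. None of 17 heat shock genes, 10 activity-regulated genes or 28 neurotrophin and CREB genes lay apart, with medians of 0.05, 0.26 and 0.10. Of 32 proteasome genes 1 lay below, Psmc2 at -0.57. Of 32 neuronal RNA-binding genes 3 lay above, the splicing factors Rbfox2 (1.04), Nova2 (0.71) and Khdrbs3 (0.64).

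**Figure D3:**
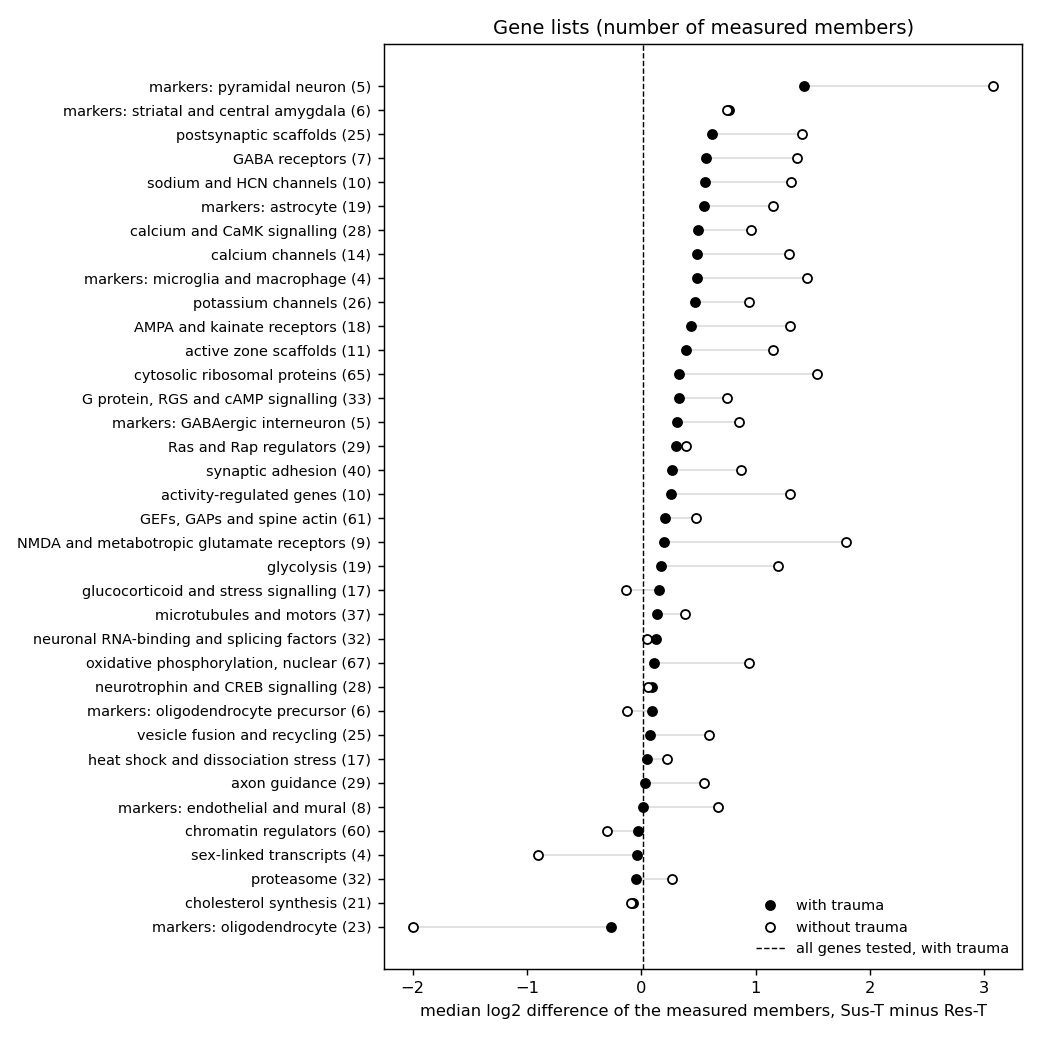
Median log2 difference (Sus-T minus Res-T, horizontal axis) of the measured members of each gene list in the amygdala with trauma (filled) and without trauma (open), with the number of members in parentheses. With trauma most synaptic lists lie between 0.08 and 0.62 against 0.01 for all genes (dashed line), and most open circles lie farther from it.

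Markers of several cell types differed alongside these genes. The summed pyramidal markers made up 0.0574%, 0.0782%, 0.0597% and 0.0743% of the Res-T libraries and 0.244%, 0.0863%, 0.14% and 0.088% of the Sus-T libraries. Every Sus-T library was above every Res-T library in this sum, although 0 of the 5 members lay apart when taken singly. Replicates 1 and 3, the highest for Bsn, Psd and Grm5, were also the highest in the sum. The members were not alike: Camk2a, Camk2n1 and Nrgn differed by 1.94, 1.45 and 1.42, Cux2 by 0.03 and Etv1 by -0.45, with a median of 1.42 that was 0.84 without Sus-T replicate 3. Among 6 genes that mark striatal and central amygdala neurons 3 lay above, and their sum was 0.0321% to 0.042% in Res-T and 0.0459% to 0.0878% in Sus-T, without overlap. In bulk libraries fewer cells of a type and less RNA per cell cannot be told apart.

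Astrocyte markers were 0.713% to 1.35% of the Res-T libraries and 1.17% to 2.39% of the Sus-T libraries, so the groups overlapped in the sum. Of 19 markers 4 lay above without overlap, namely the glutamate transporter gene Slc1a2 (1.25), Cpe (1.12), Mlc1 (0.83) and Ndrg2 (0.80), and the median was 0.55. Oligodendrocyte markers were 6.49%, 6.97%, 5.57% and 5.15% in Res-T against 5.78%, 5.11%, 4.43% and 4.72% in Sus-T, with 0 of 23 apart and a median of -0.27. The difference was negative in 20 of them, down to -0.79 for Enpp2, and positive in 3, among them the myelin gene Mbp at 0.05. Microglia and GABAergic interneuron sums overlapped, and 0 of 4 and 0 of 5 of their markers lay apart. No value of any gene was 0, and the lowest per library ran from 1.35 to 1.70. The absence of a marker could therefore not be read from these values.

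The mean log2 value of the markers of a cell type was also used as a covariate. With the pyramidal markers in the model the difference of Fbxl16 was 1.22 and that of Rap1gap2 1.77, both with an adjusted p of 0.316. With the oligodendrocyte markers these were 2.09 (adjusted p 0.0293) and 2.21 (adjusted p 0.0246), and 5 genes passed. With the astrocyte markers, an alternative chosen after seeing the data, they were 1.61 and 1.84 (adjusted p 0.311). How far cell content entered the differences of single genes was not tested beyond these fits.

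**Figure D4:**
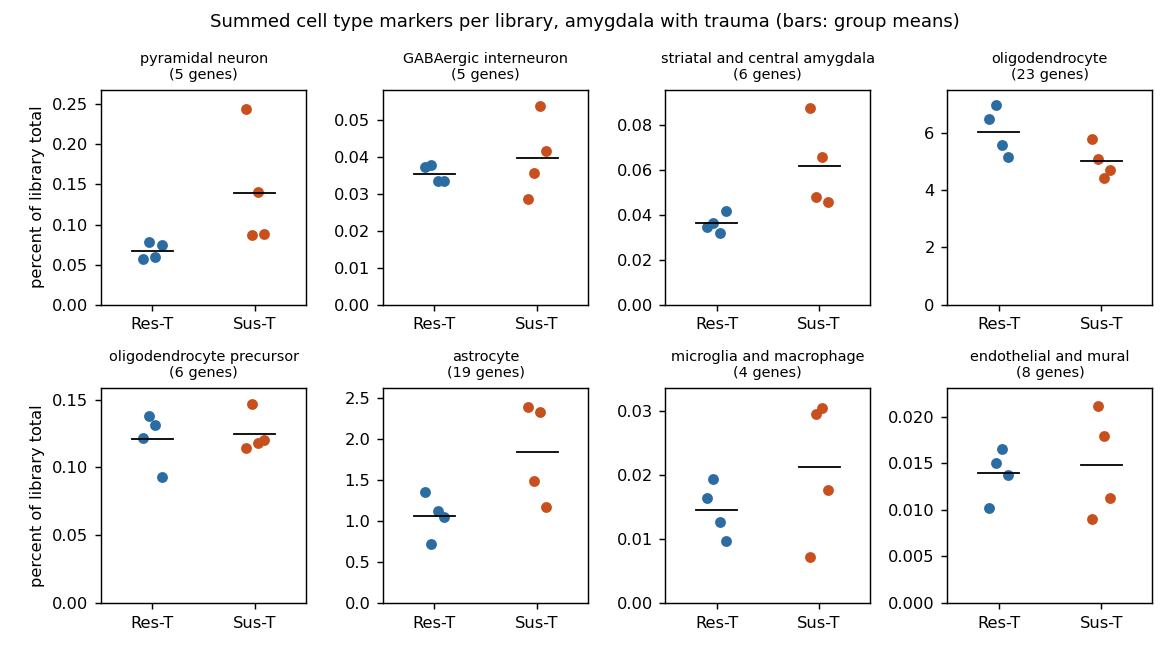
Summed values of the measured markers of 8 cell types as percent of the library total (vertical axis from 0), with 4 Res-T libraries in blue, 4 Sus-T libraries in orange and group means as bars. The pyramidal and the striatal panels show no overlap, at most 0.0782% against at least 0.0863% and at most 0.042% against at least 0.0459%.

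Several genes that are often examined in fear and stress were read out whatever their p. Nr3c1, the glucocorticoid receptor, was at 1035, 985, 1015 and 1303 in Res-T and 1201, 1219, 971 and 990 in Sus-T, a log2 difference of 0.02 ± 0.15 (adjusted p 0.978) whose sign turned under several settings. Fkbp5, a chaperone that dampens this receptor, was at 116, 67.0, 74.9 and 52.1 against 71.3, 69.7, 103 and 92.6, a difference of 0.16 ± 0.49. Arc, an immediate early gene of synaptic plasticity, was at 587, 885, 1016 and 587 against 707, 591, 661 and 590, a difference of -0.23 ± 0.24. In these 3 genes the groups overlapped broadly.

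Camk2a, a kinase that calcium and calmodulin switch on at excitatory synapses, was at 421, 835, 238 and 436 in Res-T and 3974, 1138, 2306 and 762 in Sus-T, a difference of 1.94 ± 0.45 (adjusted p 0.118). Sus-T replicate 4 was below Res-T replicate 2, so the groups overlapped despite the large difference. Grin2b, an NMDA receptor subunit, was at 296, 622, 161 and 179 against 753, 398, 1574 and 441, again with overlap through Res-T replicate 2 (1.32 ± 0.42, adjusted p 0.235). Ntrk2, the receptor of BDNF, differed by 0.57 ± 0.23 (adjusted p 0.347). Mef2c, a transcription factor of excitatory neurons, was at 466, 363, 359 and 298 against 386, 370, 491 and 554, a difference of 0.27 ± 0.24 (adjusted p 0.710). Bdnf, Crhr1, Oxtr, Cnr1 and Fos were not analysed here.

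The same phenotype contrast without trauma, from other libraries, went in the same direction for most genes set apart with trauma. Of the 342 genes above Res-T with trauma 315 (92.1%) had a positive difference without trauma as well, where 48.5% of all genes were, and 225 (65.8%) passed an adjusted p of 0.05 there in that direction against 12.4% of all genes. Of the 226 genes below, 192 (85%) were lower without trauma, where 51.5% of all genes were, and 110 (48.7%) passed against 15% of all genes. The median difference of the 342 genes was 0.74 with and 1.19 without trauma, and that of the 226 genes was -0.56 and -0.81. Across all 9872 genes the 2 differences correlated with Pearson's r of 0.424 and Spearman's rho of 0.431. Genes are not independent replicates, and the libraries share the authors' normalization, so no p is given.

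The interaction of phenotype and trauma, which tests whether the 2 differences are unlike, passed in 665 genes (6.74%) by limma with an adjusted p under 0.05. The difference was the more positive with trauma in 470 (4.76%) and the more negative in 195 (1.98%). In 500 of these the difference had the same sign and was larger without trauma, in 165 the signs were opposite, and in 0 it had the same sign and was larger with trauma. This count was 59 without Sus-T replicate 1 of the mice without trauma, 340 or 379 without any 1 of the 3 Res-T libraries without trauma, 57 with the pyramidal markers and 2 with the oligodendrocyte markers as a covariate. Of the 23 oligodendrocyte markers 20 passed the interaction, and their median difference was -2.0 without and -0.27 with trauma.

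Mef2c was among the genes that passed this test. Without trauma its means were 135 ± 70.4 in Res-T and 938 ± 35.8 in Sus-T (n = 3 and 2), against 372 ± 69.6 and 450 ± 87.4 with trauma (n = 4 each), and its interaction was -2.63 ± 0.40 (adjusted p 0.00265). Its 2 groups without trauma were far apart and its groups with trauma lay between them. Bsn averaged 87.1 ± 11.3 and 1381 ± 492 without trauma, with an interaction of -2.27 ± 0.50 (adjusted p 0.0129). For Camk2a the means without trauma were 67.0 ± 11.0 and 2311 ± 926, and the interaction was -3.10 ± 0.73 (adjusted p 0.0236). With trauma the Res-T means of Bsn and Camk2a were 276 ± 93.9 and 483 ± 252 and the Sus-T means 905 ± 409 and 2045 ± 1444. Dlg4 and Syn1 also passed the interaction, at -1.72 and -1.28. Lzts3 differed by 1.09 with and 1.10 without trauma (interaction -0.01 ± 0.36). Gjc1 differed by -2.64 with and 0.09 without trauma, but its interaction of -2.73 ± 1.01 did not pass (adjusted p 0.111).

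**Figure D5:**
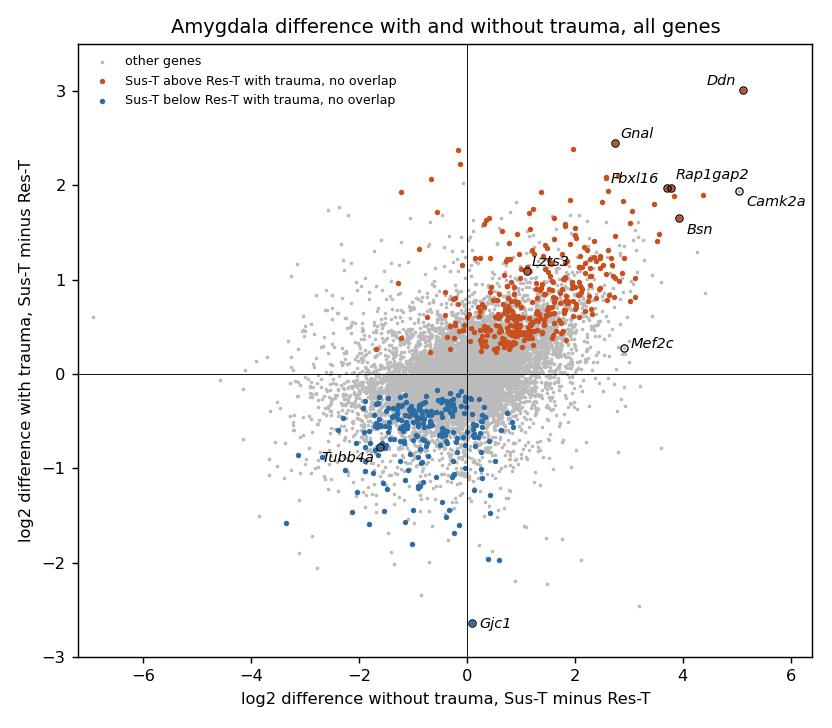
Log2 difference of Sus-T minus Res-T in the amygdala without trauma (horizontal axis) and with trauma (vertical axis) for 9872 genes, with the 342 and 226 genes whose groups did not overlap with trauma in orange and blue and 10 named genes circled. Most orange points lie to the right of 0 and most blue points to the left, and Mef2c lies far right near a vertical value of 0.27.

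In the prefrontal cortex with trauma, measured in 3 Res-T and 4 Sus-T libraries, 5274 of these genes were also in the table. Of the 342 genes 148 were measured there and 133 (89.9%) were higher in Sus-T, where 56.4% of all shared genes were. Of the 226 genes 114 were measured and 97 (85.1%) were lower, where 43.6% of all shared genes were. Across the 5274 genes the 2 regions correlated with Pearson's r of 0.342 and Spearman's rho of 0.380. Lzts3 differed by 2.0 in the prefrontal cortex, Pde10a by 1.63, Tubb4a by -1.14 and Npat by -0.89. Mef2c differed there by 3.38 against 0.27 in the amygdala, a gap between regions that was not tested because the tables were normalized separately. Fbxl16, Rap1gap2, Psd and Bsn were not analysed there.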

How the data were processed

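The authors deposited normalized signal values per gene in arbitrary units; how they normalized is not given in the sources used here, and read depth is unknown. Per the submitters' processing notes, bcl2fastq 2.20 and Salmon 1.2 were used with GRCm38.p6. The 13 amygdala libraries had 11 independent dimensions where 12 were possible, counted on the log2 of the value minus 1, centred per gene. The spread between libraries may therefore be understated, which would make p-values too small. Symbols and coordinates came from GENCODE M21, and 1 identifier had no symbol.

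The scale of analysis was log2(value + 1). A mean of at least 1 was required, which removed 0 of 9872 genes. A model with 4 groups was fitted to the 13 amygdala libraries with limma 3.58.1 in R 4.3.3 (trend and robust empirical Bayes, with 9 residual and a median of 8.32 prior degrees of freedom), and p-values were adjusted over all genes by the method of Benjamini and Hochberg, with a threshold of 0.05. The step was tested on simulated data. A log2 difference on this scale understates that of low genes. Groups were called apart where all 4 libraries of one lay above or below all 4 of the other. Prefrontal differences were plain differences of group means on the same log2 scale, without a model fit, SE or p, and tables were not combined.

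Named genes were the 12 on each side with the smallest unadjusted p. To these came up to 3 members of each of 39 gene lists with an unadjusted p under 0.05 and no overlap. The 6 largest differences on each side, among genes without overlap and with a mean of at least 50, and 15 preselected genes were added. Predicted genes, pseudogenes and shared symbols were left out among the smallest p and among the largest differences. Some genes that the rule names are not reported here and were not replaced, which leaves 11 and 12 of the smallest p. List members named beside them were chosen after their values were seen. The genes and lists were chosen with earlier results of these data known.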

Additional observations from a re-analysis of the deposited data

Results flagged for a closer look

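Among the 77 named genes, 154 groups of 4 libraries were checked for 1 library far from the other 3 by Dixon's criterion. Chance gives about 1 in 20 for independent groups with a normal spread, but these genes share the same libraries. The 12 that were found were therefore not read as an excess. In 6 of them the library was Sus-T replicate 1 on the high side: Dlg4 at 1177, Kcnt2 at 261, Rcan1 at 284, Sipa1l1 at 1738, Adcy5 at 1757 and Rpl36a at 398. Sus-T replicate 2 was low for Strada at 3.92 and Basp1 at 305. Res-T replicate 2 was high for Ldlrad3 at 428 and low for Map2 at 725. Res-T replicate 4 was low for Ryr3 at 22.2 and high for Nr3c1 at 1303.

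The test of the interaction between phenotype and trauma passed an adjusted limma p of 0.05 in 17 of the 77 named genes. Over all genes it passed in 665 of 9872 (6.74%), and in 2 with the oligodendrocyte markers as a covariate. The named genes were chosen largely by their difference with trauma, so these counts were not compared by a test. A pass means that the Sus-T minus Res-T difference with trauma was unlike that without. Among synaptic and adhesion genes the log2 interaction was -2.27 for Bsn, -1.95 for Psd, -1.28 for Syn1, -1.72 for Dlg4 and -1.06 for Adgrl1. Among signalling genes it was -1.72 for Fbxl16, -1.80 for Rap1gap2, -1.45 for Sipa1l1, -1.55 for Camk1d and -3.10 for Camk2a. It was -2.29 for Basp1, -1.26 for Rbfox2, -1.31 for Nova2, -1.68 for Khdrbs3, -1.32 for Rpl30 and -2.63 for Mef2c. Adamts20 was the 1 positive value, at 1.32. These tests rest on 3 and 2 libraries without trauma, and oligodendrocyte markers differed between those groups by a median of -2.0.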

How the results depend on the processing

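The count of 0 genes past an adjusted limma p of 0.05 was also 0 with the 8 libraries alone, a pseudocount of 0.1, no filter, no trend and robust options, and pyramidal or astrocyte covariates. It was 2 with a pseudocount of 10, 2 with a mean of at least 10, 2 with quantile normalization, 1 with equal library totals, 5 with oligodendrocyte markers as a covariate, from 0 to 12 when 1 library was left out and 35 without both replicates numbered 2. Fbxl16 passed in 11 of 26 settings (adjusted p from 0.0108 to 0.316) and Rap1gap2 in 8. The 568 genes without overlap became from 744 to 1095 when 1 library with trauma was left out and 1468 without both replicates numbered 2, where fewer libraries must be separated. The interaction count of 665 became 366 without trend and robust options, 2 and 57 with oligodendrocyte and pyramidal covariates, and from 59 to 810 when 1 library was left out. The share higher among genes with an unadjusted p under 0.05 was 60.7%, 54% with quantile normalization and 51.5% with equal totals.

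Nr3c1 turned to -0.0391 with quantile normalization, -0.0248 with equal totals, -0.0435 and -0.0383 with pyramidal and astrocyte covariates, -0.082 without both replicates numbered 2, and ran from -0.0387 to 0.107 without single libraries. Fkbp5 ran from -0.0116 (without Res-T replicate 4) to 0.37 without single libraries. No other named gene changed sign. Of 629 list medians under the alternatives 18 changed sign, in 8 lists. The cause of these changes was not tested.

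With the replicate number as a block 10 genes passed, among them Fbxl16, Rap1gap2, Psd and Bsn (adjusted p 0.0291 each), and the interaction count was 463. Same-numbered libraries did not deviate together throughout (correlations of 0.15, 0.16, -0.16 and 0.085, and not every library correlated best with its own number), so the numbers were not taken as pairs. The median value per library was nevertheless close between same-numbered Res-T and Sus-T libraries, at 150 and 151, 152 and 152, 147 and 148, and 142 and 142 for replicates 1 to 4. Covariates of astrocyte markers, the omission of both replicates numbered 2 and that of libraries without trauma were chosen after seeing the data.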

Other observations

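The genes whose groups did not overlap with trauma were compared with all genes in their annotation, without a test. The median genomic span was 38.7 kb for the 342 genes above Res-T and 41 kb for the 226 genes below, against 28.2 kb for all genes, and the median exon length was 5.26 and 5.94 kb against 5.01 kb. Their median values were 205 and 200 against 151. On the X chromosome lay 12 of the 342 and 5 of the 226 genes, of 332 measured.

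Cholesterol synthesis and glycolysis were measured in 21 and 19 genes. The median log2 difference was -0.07 for cholesterol synthesis and 0.17 for glycolysis. Slc2a3, the neuronal glucose transporter, was at 72.7, 52.3, 48.9 and 71.6 in Res-T and 108, 94.1, 89.8 and 125 in Sus-T, a difference of 0.76. Of 40 synaptic adhesion genes 4 lay above and 3 below. Nlgn3, a neuroligin, differed by 0.59, and Nectin1, an adherens junction protein, was at 366, 389, 336 and 500 against 232, 205, 286 and 249, a difference of -0.70. Of 29 axon guidance genes only Efnb2, an ephrin, lay apart, at 0.77.

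Among 17 genes of glucocorticoid and stress signalling, Mgll and Adcyap1r1 lay above. Adcyap1r1, the receptor of the stress peptide PACAP, was at 592, 466, 514 and 488 in Res-T and 794, 837, 740 and 657 in Sus-T, a difference of 0.55 ± 0.18 (adjusted p 0.234).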
